A study of Drosophila melanogaster with 24 samples.

Results

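Glutamate is the main fast transmitter at the fly neuromuscular junction and is also used widely in the brain, where it can excite or inhibit depending on the receptor it meets. It is sensed by cation channels of the NMDA and AMPA/kainate type, by a glutamate-gated chloride channel that inhibits the cell, and by a G protein-coupled metabotropic receptor. Glia take released glutamate back up and turn it into glutamine. The 8 genes described here stand for each of these steps. They were found by matching their FlyBase symbols to the gene identifiers of the table, and all 8 were among the 17559 genes listed. The genes were chosen with earlier results of these data known. NMDA receptor subunits were Nmdar1 and Nmdar2, AMPA-type subunits were GluRIA and GluRIB, the chloride channel subunit was GluClalpha and the metabotropic receptor was mGluR. Clearance was represented by the glial transporter Eaat1 and the glutamine synthetase Gs2.

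Messenger RNA was sequenced from single heads of adult male Drosophila melanogaster in the male courtship suppression paradigm, where a male rejected by a mated female learns to court less. A 1X trained male met the female for 1 session of 2 h and a 3X trained male for 3 such sessions 30 min apart, while 1X mock and 3X mock males spent the same time in the training tube alone. Heads were frozen 1 h after the end of handling, and each of the 4 groups held 6 flies, 1 head per library. All males had been housed alone since shortly after eclosion, and the strain was not given in the sources used here. Mock males are controls for handling, and the schedules differ in the total time of handling; the clock time of collection was not given in the sources used here.

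The libraries held 18929289 to 41403289 reads, with a median of 34567409, as recovered from the deposited RPKM values, which divide reads by the length of the gene and the size of the library. The lowest number of reads behind any value of the 8 genes was 299, for GluRIB in a 1X trained fly. 3X mock replicate 6 stood apart: 13.9% of genes were listed at 0 against 18.4% to 22.2% in the other libraries, and the summed RPKM of 12 testis genes reached 125.0 against at most 34.7 elsewhere. The defining markers of neurons and glia were present in every group: elav, a neuronal RNA-binding protein, had group means of 9.07 to 9.88 RPKM and repo, the glial homeodomain factor, of 13.2 to 14.7 RPKM. A whole head mixes neurons, glia, eye, muscle and fat body, so fewer cells of a type and less RNA per cell cannot be told apart in any value below.

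Coordinates are those of the whole gene in the dm6 assembly (BDGP6, Ensembl 115). Nmdar1 (FBgn0010399) is at 3R, 5508842 to 5523328, on the minus strand, and Nmdar2 (FBgn0053513) at X, 1483625 to 1507809, also on the minus strand. GluRIA (FBgn0004619) is at 3L, 6624032 to 6635059, and GluRIB (FBgn0264000) at 3L, 9251978 to 9288522, both on the plus strand. GluClalpha (FBgn0024963) is at 3R, 19730715 to 19775231, and mGluR (FBgn0019985) on chromosome 4, 936819 to 949441, both on the plus strand. Eaat1 (FBgn0026439) is at 2L, 9333567 to 9341925, and Gs2 (FBgn0001145) at X, 11422832 to 11430197, again on the plus strand. The libraries did not keep the strand, so reads of overlapping genes would add up. Of the 8 genes only mGluR shared exon bases with another gene, 57 bases or 0.897% of its exons, with an INE-1 element on the same strand.

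The clearance genes were the most abundant and the receptor subunits the least, over a range from 993.3 RPKM for Gs2 to 2.31 RPKM for GluRIB as medians of the 24 flies. Gs2 ran from 765.9 to 1079.5 RPKM and was higher than 99.6% of the 10547 genes tested. Eaat1 followed at 136.2 to 172.3 RPKM, with a median of 156.3 RPKM. GluClalpha, at 40.1 to 49.0 RPKM, was the most abundant receptor gene of the 8. These first ranks were clearly separated, since within a fly Gs2 was 5.37 to 7.74 times Eaat1, Eaat1 was 2.79 to 4.20 times GluClalpha, and GluClalpha was 3.49 to 5.51 times mGluR.

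The remaining receptor genes lay closer together. Their medians were 9.97 RPKM for mGluR, 7.77 RPKM for Nmdar1, 5.97 RPKM for GluRIA, 5.18 RPKM for Nmdar2 and 2.31 RPKM for GluRIB. The ranges over flies of mGluR and Nmdar1, of Nmdar1 and GluRIA, and of GluRIA and Nmdar2 overlapped. Even so the order held within almost every head: mGluR exceeded Nmdar1 in 24 of 24 flies, Nmdar1 exceeded GluRIA in 24 of 24 and GluRIA exceeded Nmdar2 in 23 of 24. GluRIB stood below Nmdar2 in all 24 flies, with no overlap between their ranges.

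**Figure D1:**
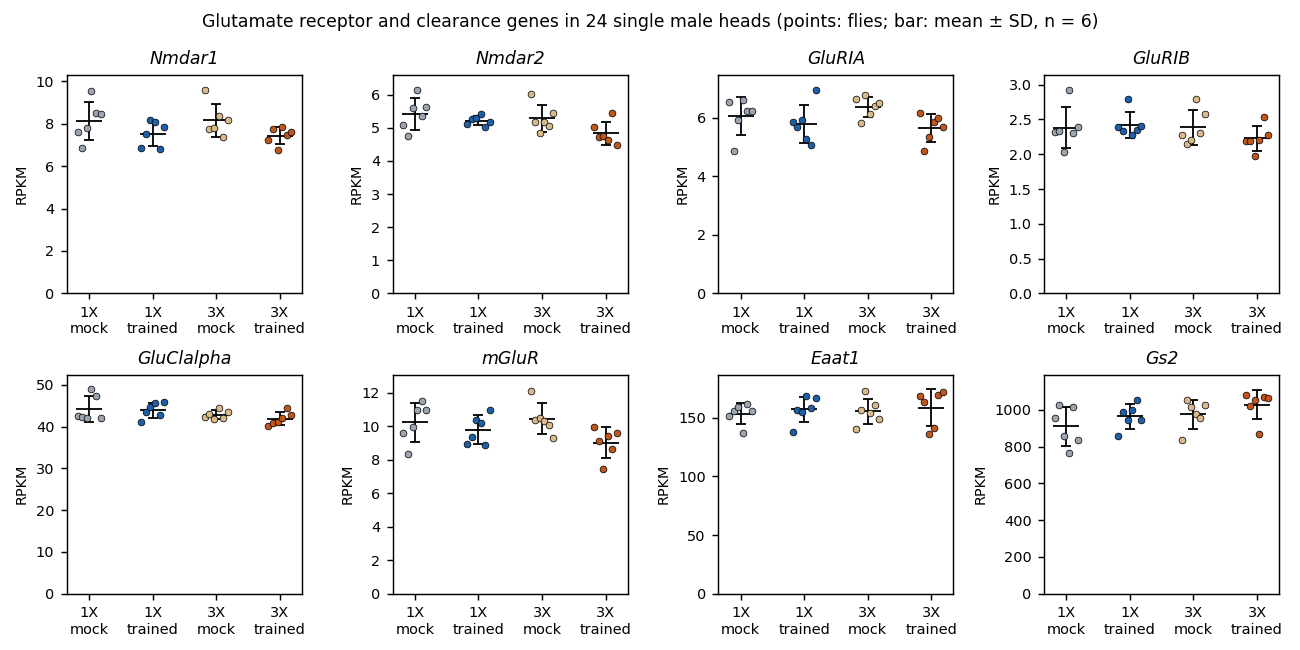
RPKM of the 8 genes (y axes, each from 0) in the 4 groups (x axes), with 1 point per fly and the mean ± SD of 6 flies as a bar. In every panel the 4 groups overlap, and the 3X trained flies sit lowest on average for Nmdar1, Nmdar2, GluRIA, GluRIB, GluClalpha and mGluR and highest for Eaat1 and Gs2.

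The first question was whether a single session changed these mRNAs. None of the 8 genes passed the test between 1X trained and 1X mock flies. In the same comparison 521 of 10547 genes, 4.94%, were called by limma on log2(RPKM + 1) at an adjusted p below 0.05. None of the 8 had an unadjusted p below 0.05 either, a limit that 20.8% of all genes met. Voom on the recovered reads also called none of them.

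The NMDA receptor is a channel that opens only when glutamate binds a depolarised cell, and Nmdar1 is its obligatory subunit. Nmdar1 had a lowest, median and highest RPKM of 6.87, 8.12 and 9.52 in 1X mock flies and of 6.80, 7.67 and 8.15 in 1X trained flies. The ranges overlapped, with 2 trained flies below every mock fly. The fitted log2 change was -0.09 (SE 0.06, limma adjusted p = 0.44). Nmdar2, its partner subunit, ran from 4.74 to 6.15 RPKM (median 5.49) in 1X mock flies and from 5.02 to 5.42 RPKM (median 5.23) in 1X trained flies. All 6 trained flies lay inside the mock range and below its median, and the log2 change was -0.04 (SE 0.05, limma adjusted p = 0.683).

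The AMPA-type subunits carry fast excitation. GluRIA ran from 4.85 to 6.62 RPKM (median 6.24) in 1X mock and from 5.08 to 6.95 RPKM (median 5.77) in 1X trained flies, and the log2 change was -0.06 (SE 0.07, limma adjusted p = 0.694). GluRIB ran from 2.03 to 2.92 RPKM (median 2.33) and from 2.27 to 2.79 RPKM (median 2.37), and changed by 0.02 on the log2 scale, with an SE of 0.06 (limma adjusted p = 0.896). Its sign turned to -0.00173 after quantile normalization. In both genes the groups overlapped over most of their range.

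GluClalpha, the chloride channel subunit that is also the target of ivermectin, ran from 42.0 to 49.0 RPKM (median 42.4) in 1X mock and from 41.1 to 45.8 RPKM (median 44.1) in 1X trained flies. Its log2 change was -0.01 with a 95% confidence interval of -0.09 to 0.08 (limma adjusted p = 0.955), the narrowest interval of the 8, and the sign turned to 0.00704 with sample weights. mGluR, which signals through an inhibitory G protein, ran from 8.32 to 11.5 RPKM (median 10.5) in mock and from 8.89 to 11.0 RPKM (median 9.79) in trained flies. All 6 trained flies lay inside the mock range, and the log2 change was -0.05 (SE 0.07, limma adjusted p = 0.749).

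Eaat1, which carries glutamate into glia, ran from 136.7 to 162.0 RPKM (median 155.7) in 1X mock and from 138.1 to 168.4 RPKM (median 157.3) in 1X trained flies. The log2 change was 0.03 (SE 0.06, limma adjusted p = 0.823). Gs2, which joins glutamate and ammonia to make glutamine, ran from 765.9 to 1027.1 RPKM (median 907.2) and from 857.2 to 1054.9 RPKM (median 965.2). Of the trained flies 5 of 6 exceeded the mock median, yet the ranges overlapped and the log2 change of 0.09 (SE 0.08, limma adjusted p = 0.563) did not pass. Over the 8 genes the 95% intervals after 1X training reached from -0.225 to 0.247, or from a fall of 14.4% to a rise of 18.7% in RPKM + 1, with the values scaled as deposited. After quantile normalization the change of Gs2 was larger, at 0.195 (limma adjusted p = 0.0857). On this scale the change of a low gene such as GluRIB is understated.

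After 3 sessions none of the 8 genes passed the test against 3X mock either, where 239 genes, 2.27% of those tested, were called by limma. All 6 receptor genes had a lower mean in trained flies and both clearance genes a slightly higher one. mGluR and GluRIA reached an unadjusted p below 0.05, and 21.2% of all genes did so. The median log2 change of the 8 genes was -0.09, beside 0.01 over all genes tested.

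mGluR differed most. Its values in 3X mock flies 1 to 6 were 12.1, 10.4, 10.5, 10.3, 10.1 and 9.32 RPKM, and in 3X trained flies 1 to 6 they were 9.98, 9.12, 7.43, 9.40, 8.65 and 9.60 RPKM. Every trained fly lay below the mock median of 10.3 RPKM and 3 of 6 lay below every mock fly, but the groups overlapped between 9.32 and 9.98 RPKM. The mean level of the mock flies was 10.5 ± 0.922 RPKM and that of the trained flies 9.03 ± 0.902 RPKM (SD, n = 6 each), a ratio of 0.863. The log2 change was -0.19 with a 95% confidence interval of -0.35 to -0.04 (SE 0.07, unadjusted p = 0.0152, limma adjusted p = 0.134). The adjusted p ran from 0.106 to 0.205 over 9 other ways of processing and from 0.0971 to 0.344 when each fly was left out in turn, so the result stayed short of the threshold throughout. Without 3X mock replicate 6 the change was -0.22 (limma adjusted p = 0.13).

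GluRIA showed a similar pattern. The 3X mock values were 6.63, 5.81, 6.77, 6.13, 6.39 and 6.50 RPKM, and the 3X trained values 6.18, 4.85, 5.34, 5.84, 5.99 and 5.68 RPKM. All 6 trained flies were below the mock median of 6.45 RPKM and 3 of 6 below every mock fly. The means of 6.37 ± 0.351 and 5.65 ± 0.482 RPKM (SD, n = 6 each) gave a ratio of 0.886, and the log2 change was -0.15 (SE 0.07, unadjusted p = 0.0327, limma adjusted p = 0.191). Photoreceptor markers moved the same way in this comparison: all 6 were lower in 3X trained flies (median log2 change -0.09), 2 of 6 had an unadjusted p below 0.05 beside 21.2% of all genes, and their summed level was 14344.1 to 16376.6 RPKM in mock and 14068.2 to 15981.1 RPKM in trained flies. A second measure was the mean log2(RPKM + 1) of these 6 markers, with group means removed. Over the 24 flies it had a Pearson r of 0.578 with mGluR (rho 0.503) and 0.568 with GluRIA (rho 0.483). The part of the photoreceptor markers in the lower means of mGluR and GluRIA was not tested.

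GluRIB, the partner of GluRIA, ran from 2.15 to 2.79 RPKM (median 2.29) in mock and from 1.98 to 2.53 RPKM (median 2.19) in trained flies, and the log2 change was -0.07 (SE 0.06, limma adjusted p = 0.549).

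Both NMDA receptor subunits were lower on average. Nmdar1 ran from 7.35 to 9.59 RPKM (median 7.97) in 3X mock and from 6.75 to 7.83 RPKM (median 7.54) in 3X trained flies. The 6 trained flies were all below the mock median, and the log2 change of -0.12 (SE 0.06, limma adjusted p = 0.3) did not pass. For Nmdar2 the 3X mock values were 6.02, 5.18, 4.85, 5.18, 5.05 and 5.44 RPKM, and the 3X trained values 5.02, 4.73, 4.74, 4.64, 5.45 and 4.47 RPKM. Of the trained flies 4 lay below every mock fly, while replicate 5 was above the mock median, and the log2 change was -0.105 (SE 0.05, unadjusted p = 0.0504, limma adjusted p = 0.237).

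GluClalpha, Eaat1 and Gs2 moved least in proportion to their spread. GluClalpha ran from 41.8 to 44.5 RPKM (median 42.7) in 3X mock and from 40.1 to 44.5 RPKM (median 41.5) in 3X trained flies, and the log2 change was -0.03 (SE 0.04, limma adjusted p = 0.682). Eaat1 ran from 140.5 to 172.3 RPKM (median 155.1) and from 136.2 to 172.2 RPKM (median 165.8). Its log2 change of 0.02 (SE 0.06, limma adjusted p = 0.878) turned to -0.0125 after quantile normalization. Gs2 ran from 834.9 to 1052.4 RPKM (median 995.1) in mock and from 870.6 to 1079.5 RPKM (median 1059.0) in trained flies. In 4 of 6 trained flies Gs2 was above every mock fly, but replicate 4 was low, and the log2 change was 0.07 (SE 0.08, limma adjusted p = 0.625). The intervals of the 8 genes after 3X training reached from -0.347 to 0.232, or from a fall of 21.4% to a rise of 17.4% in RPKM + 1.

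**Figure D2:**
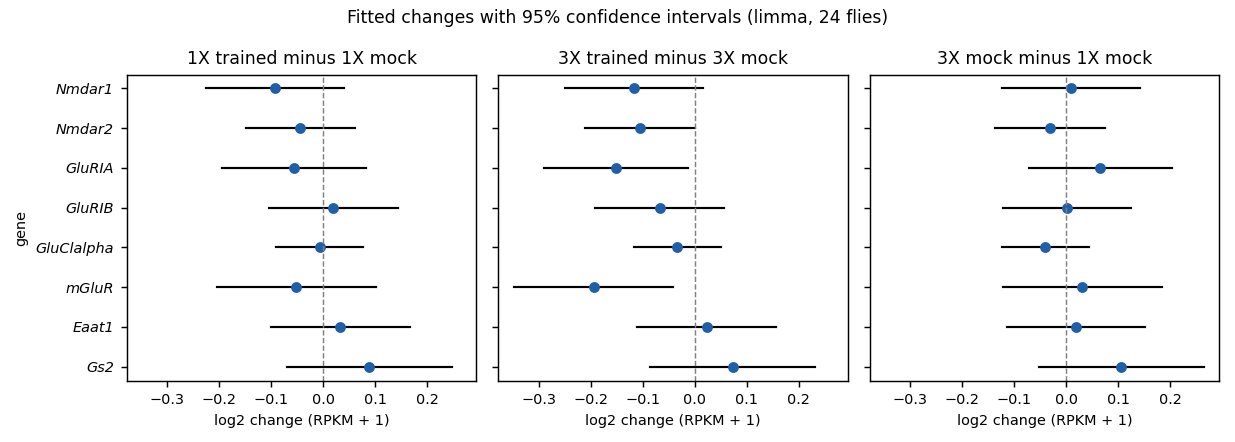
Fitted log2 change in RPKM + 1 (x axes) for each of the 8 genes (y axis) in 3 comparisons, with 95% confidence intervals from limma on 24 flies and a dashed line at no change. Intervals for mGluR (-0.35 to -0.04) and GluRIA lie below 0 before adjustment in the 3X comparison, and no gene passed the test after adjustment in any panel.

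Whether the effect of training depended on the schedule was tested as the 3X effect minus the 1X effect. None of the 8 genes passed, beside 18 genes or 0.171% of those tested by limma, and none had an unadjusted p below 0.05, which 11.6% of genes had. The differences ran from -0.14 for mGluR (SE 0.105, 95% confidence interval -0.36 to 0.07) to -0.01 for Eaat1, with limma adjusted p from 0.645 to 0.98. The effect of 3 sessions, against 3X mock, was therefore not shown to differ from that of 1 session, against 1X mock, in any of the 8 genes. The small differences of Nmdar1, Eaat1 and Gs2 changed sign when some single flies were left out.

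The mock groups asked what the longer schedule did without a female. Flies of the 3X mock group were handled longer than those of the 1X mock group, and a difference in clock time of collection cannot be told apart from the handling. Clock genes differed strongly between these groups: tim, a light-sensitive partner of the period protein, rose from 14.6 ± 4.47 to 109.7 ± 9.85 RPKM and per from 5.74 ± 1.43 to 18.4 ± 1.77 RPKM (SD, n = 6 each). Of all genes 458, 4.34%, were called by limma, and 16.9% had an unadjusted p below 0.05. Of the 8 genes none met either limit, and their log2 changes lay between -0.04 for GluClalpha (SE 0.04, limma adjusted p = 0.683) and 0.11 for Gs2 (SE 0.08, limma adjusted p = 0.523). Intervals reached from -0.136 to 0.264, and after quantile normalization the change of Gs2 was 0.20 (limma adjusted p = 0.0859).

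In the trained flies, which are the same animals as in the training comparisons, 3X trained minus 1X trained gave log2 changes from -0.11 for mGluR (limma adjusted p = 0.368) to 0.09 for Gs2 (limma adjusted p = 0.504). None of the 8 was called, while 1172 genes or 11.1% were called by limma, and none had an unadjusted p below 0.05, which 26.2% of genes had. The smallest adjusted p was 0.261, for Nmdar2. In RPKM, Nmdar2 was 5.22 ± 0.142 after 1 session and 4.84 ± 0.348 after 3 (SD, n = 6 each). Of the 3X trained flies 5 lay below every 1X trained fly and replicate 5 lay above them all.

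Ratios within a head do not depend on how libraries are scaled, and they compare partner genes directly. Nmdar1 was 1.33 to 1.70 times Nmdar2 over the 24 flies (median 1.5), and GluRIA was 2.07 to 3.08 times GluRIB (median 2.56). Eaat1 was 0.129 to 0.186 of Gs2 (median 0.160). Across the 3 ratios and the 1X, 3X and mock comparisons, none of 9 exact permutation tests passed, with exact two-sided p of 0.229 or more and adjusted p of 0.572 to 0.935. The largest difference was -0.09 on the log2 scale in GluRIA over GluRIB after 1X training (exact permutation p = 0.361, lower than the mock mean in 5 of 6 flies).

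The 8 genes differed in how tightly like-treated males agreed. GluClalpha was the least variable: its SD within groups was 0.0647 on the log2(RPKM + 1) scale, and 4.97% of all genes had a smaller one. Nmdar2 followed with 0.0845, smaller in 20.2% of genes. The other 6 genes had an SD of 0.0963 to 0.132, beside a median of 0.121 over all genes. The coefficient of variation between flies averaged 4.33% for GluClalpha to 9.81% for mGluR, while counting alone gives 0.374% for Gs2 to 4.23% for GluRIB. For GluRIB, with the largest counting error, the average between flies was 9.56%. Counting error was thus smaller than the average spread of each gene, but not in every group. Nmdar2 varied by 2.73% in 1X trained flies, close to its counting value of 2.69%.

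Some of these genes varied together between flies of the same group. With group means removed, 6 of 28 gene pairs had a Pearson correlation with an adjusted permutation p below 0.05 over 24 flies, all 6 positive. The strongest was between Nmdar1 and mGluR (r = 0.785, permutation p = 4e-05, adjusted p = 0.00112, Spearman rho = 0.774, permutation p = 0.00013, adjusted p = 0.00364). Without the 2 flies farthest from the median of Nmdar1, r was 0.744. This was the only pair that also passed by rank, and by Pearson r it passed under every alternative tried.

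Next came the 2 NMDA receptor subunits, Nmdar1 and Nmdar2 (r = 0.681, permutation p = 0.00118, adjusted p = 0.0165, rho = 0.598, permutation p = 0.0038, adjusted p = 0.0532), with r = 0.509 without the 2 farthest flies. Nmdar1 and GluClalpha had r = 0.616 (permutation p = 0.00439, adjusted p = 0.0246, rho = 0.6, permutation p = 0.00578, adjusted p = 0.0539) and r = 0.469 without the 2 farthest flies. GluRIB and GluClalpha had r = 0.611 (permutation p = 0.00259, adjusted p = 0.0181, rho = 0.413, permutation p = 0.0507, adjusted p = 0.215) and r = 0.410 without them. These pairs rested partly on 1X mock replicate 4, which had the highest Nmdar1, Nmdar2, GluRIB and GluClalpha of its group. Without that fly a single pair, Nmdar1 and mGluR, passed, and without 3X mock replicate 1 there were 3.

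GluRIA and mGluR had r = 0.567 (permutation p = 0.0103, adjusted p = 0.0479, rho = 0.53, permutation p = 0.0147, adjusted p = 0.103), r = 0.349 without the 2 farthest flies, and lost the call when any of 13 flies was left out. The clearance genes Eaat1 and Gs2 had r = 0.589 (permutation p = 0.00258, adjusted p = 0.0181, rho = 0.386, permutation p = 0.0588, adjusted p = 0.215) and r = 0.655 without the 2 farthest flies. That relation was lost after quantile normalization (r = 0.162, adjusted p = 0.74). With a replicate block 3 pairs no longer passed: Eaat1 and Gs2 (r = 0.503, adjusted p = 0.0714), GluRIA and mGluR (r = 0.513, adjusted p = 0.0714) and GluRIB and GluClalpha (r = 0.491, adjusted p = 0.114).

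Cell type markers moved with some of the 8 genes between flies. Each list was taken as the mean log2(RPKM + 1) of its genes, with group means removed. Against the mean of 8 neuronal genes Pearson r was 0.68 for GluRIB (rho 0.543), 0.591 for GluClalpha (rho 0.531), 0.574 for Nmdar1 (rho 0.545) and 0.548 for Nmdar2 (rho 0.39). It was lower for GluRIA at 0.362 (rho 0.284) and mGluR at 0.335 (rho 0.277). Without the 2 flies farthest in the neuronal mean these 6 values were, in the same order, 0.627, 0.382, 0.445, 0.478, 0.118 and 0.188. Against 6 glial genes r over all 24 flies was 0.827 for Gs2 (rho 0.79) and 0.743 for Eaat1 (rho 0.643). Gs2 ran against the neuronal mean at r = -0.512 (rho -0.494). These values describe 24 libraries that share a scaling step, and the part of cell composition in the pairs was not tested. Between groups the sums overlapped: 413.1 to 459.3, 392.1 to 449.3, 397.6 to 422.9 and 383.2 to 428.1 RPKM for neuronal genes in the mock and trained flies of the 1X and then the 3X schedule, and, in the same order, 367.8 to 493.7, 386.3 to 488.8, 369.5 to 478.1 and 416.4 to 484.5 RPKM for glial genes. No neuronal marker was called in any comparison. All 8 were nevertheless lower on average in 3X mock than in 1X mock flies (median log2 change -0.09). Of these, 3 of 8 had an unadjusted p below 0.05, beside 16.9% of all genes. Between trained groups 7 of 8 were lower after 3 sessions (median -0.09), with 2 of 8 at that limit beside 26.2%. Of 6 glial markers, wrapper, a surface protein of midline and wrapping glia, fell after 1X training (log2 change -0.33, SE 0.09, limma adjusted p = 0.042), a call lost when any 1 of the 6 1X mock flies or of 1X trained replicates 1 to 4 was left out. The call was also lost without the filter (limma adjusted p = 0.0683), when only those groups were fitted (0.0533) and with a replicate block (0.0659).

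**Figure D3:**
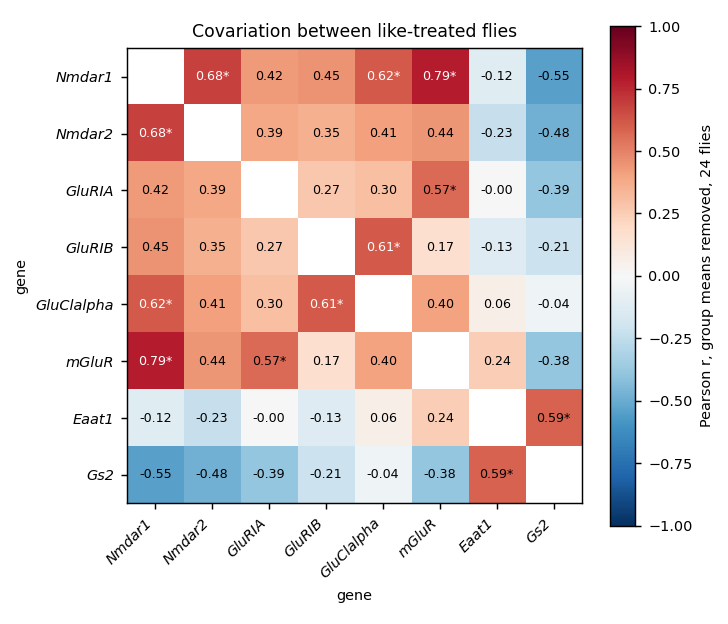
Pearson correlation (colour and printed value) of log2(RPKM + 1) between each pair of the 8 genes over 24 flies after removal of group means, with an asterisk where the adjusted permutation p was below 0.05. The receptor genes form a block of positive values led by Nmdar1 and mGluR, and Gs2 is positive only with Eaat1.

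The rest of the glutamate system was taken from 3 lists. Of 11 other ionotropic receptor genes, counting the auxiliary subunit Neto, 9 passed the filter on low values. After 1X training none was called beside 4.94% of all genes, and 1 of 9 had an unadjusted p below 0.05 beside 20.8%, with the smallest p for GluRIID, a subunit of the neuromuscular junction receptor, which averaged 1.54 ± 0.225 RPKM without and 1.31 ± 0.106 RPKM with a female (log2 change -0.13, SE 0.06, limma adjusted p = 0.192). After 3X training 1 of 9 was called, beside 2.27% of all genes, and 1 of 9 had an unadjusted p below 0.05, beside 21.2%. It was clumsy, a kainate-type subunit, which fell. It ran from 2.11 to 3.05 RPKM (median 2.47) in 3X mock and from 1.79 to 2.24 RPKM (median 2.07) in 3X trained flies. The groups overlapped slightly, and the log2 change was -0.23 (SE 0.06, limma adjusted p = 0.0454). This call was fragile, since it was lost in 4 of 8 alternatives and when any 1 of 13 flies was left out, with an adjusted p up to 0.127. These were 1X mock replicates 1 and 5, 1X trained replicates 2, 3 and 6, 3X mock replicates 1, 3, 4 and 6, and 3X trained replicates 2, 3, 5 and 6. The adjusted p was 0.0968 without 3X mock replicate 6, the library that stood apart.

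Between schedules in trained flies 1 of the 9 other receptor genes tested was called, beside 11.1% of all genes. In that comparison 3 of 9 had an unadjusted p below 0.05, beside 26.2%. The called gene was Grik, another kainate-type subunit. It was higher after 3 sessions at 19.3 ± 7.37 RPKM than after 1 at 9.82 ± 3.19 RPKM (SD, n = 6 each). The ranges of 11.6 to 27.7 and 5.49 to 14.2 RPKM overlapped in part. The log2 change was 0.88 (SE 0.22, limma adjusted p = 0.011), and the call was lost when only those groups were fitted (adjusted p = 0.0686). In mock flies the change was 0.45 (limma adjusted p = 0.3). Handling time and clock time cannot be told apart between these groups either.

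The second list held 11 genes, all tested. They were genes of glutamate supply, vesicle loading, export and metabolism, and mtt, a receptor related to mGluR. No gene of the list was called after 1X or 3X training, with 2 and 3 of 11 at an unadjusted p below 0.05, near the 20.8% and 21.2% of all genes. Among these 3 was mtt (3X log2 change -0.15, SE 0.07, unadjusted p = 0.0427, limma adjusted p = 0.221). Its change after 1X training was -0.04 (limma adjusted p = 0.779). The smallest p after 1X training was that of Got1, the cytosolic aspartate aminotransferase that interconverts glutamate and aspartate. Its level was 347.3 ± 13.3 RPKM without and 282.0 ± 28.7 RPKM with a female (log2 change -0.30, SE 0.09, limma adjusted p = 0.056). After 3X training it was that of gb, or genderblind, a glial cystine/glutamate exchanger subunit known for its part in male courtship (log2 change 0.18, SE 0.06, limma adjusted p = 0.0855).

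Between mock groups 3 of the 11 genes of this list were called, all lower after the longer schedule, beside 4.34% of all genes called. Got2, the mitochondrial aspartate aminotransferase, ran from 315.8 to 459.2 RPKM (median 343.8) in 1X mock and from 175.9 to 263.7 RPKM (median 221.0) in 3X mock flies. These groups did not overlap, and Got2 fell (log2 change -0.75, SE 0.15, limma adjusted p = 0.0042). Gs1, the mitochondrial glutamine synthetase and counterpart of Gs2, ran from 83.4 to 97.5 RPKM (median 86.4) and from 47.3 to 66.7 RPKM (median 61.9), again without overlap (log2 change -0.56, SE 0.13, limma adjusted p = 0.0134). The share of all genes tested without overlap between the mock groups was not counted, so overlap is given as a description only.

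The third, gb, ran from 11.8 to 14.4 RPKM (median 13.3) in 1X mock and from 8.34 to 10.7 RPKM (median 9.94) in 3X mock flies, also without overlap (log2 change -0.40, SE 0.06, limma adjusted p = 8.31e-05). An antisense RNA covers 32.8% of the exon bases of gb, and without strand its reads cannot be told apart. The 3 calls held in all 9 alternatives and without any 1 of the 24 flies. Between trained groups 2 of the 11 genes of this list were called, both lower after 3 sessions, beside 11.1% of all genes. They were Gs1 (log2 change -0.53, limma adjusted p = 0.0118) and Got2 (log2 change -0.52, limma adjusted p = 0.0296). Both calls were lost when only those groups were fitted (adjusted p = 0.0773 for Gs1 and 0.0965 for Got2), and that of Got2 also without the filter (adjusted p = 0.0505) and without 1X trained replicate 4 or 5 or 3X trained replicate 2 or 5. In the same comparison gb had a change of -0.09 (limma adjusted p = 0.332). Gs2 had a change of 0.11 between mock groups that did not pass, and its difference from that of Gs1 was not tested.

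**Figure D4:**
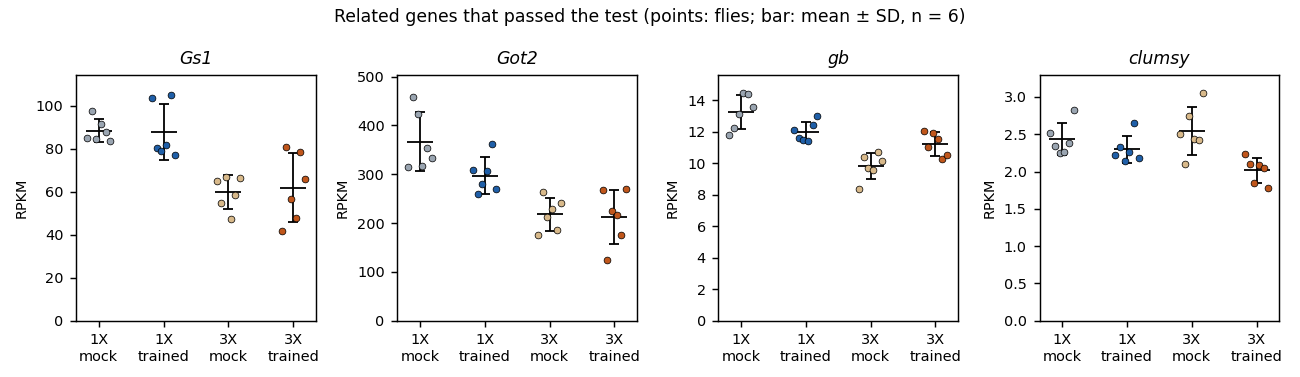
RPKM (y axes, each from 0) of Gs1, Got2, gb and clumsy in the 4 groups (x axes), with 1 point per fly and the mean ± SD of 6 flies. The 3X mock flies lie below all 1X mock flies for Gs1, Got2 and gb, a separation whose share over all genes was not counted. For clumsy the 3X trained flies lie mostly below the 3X mock flies.

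The third list held 10 genes of synaptic scaffold, adhesion and other synapse-associated proteins. None was called after 1X training, where none had an unadjusted p below 0.05 beside 20.8% of all genes, or after 3X training, where 2 of 10 had one beside 21.2%. The smallest p was that of homer, a scaffold that binds metabotropic receptors, after 1X training (log2 change -0.08, SE 0.04, limma adjusted p = 0.247) and of Nlg2, a neuroligin adhesion protein, after 3X training (log2 change -0.15, SE 0.05, limma adjusted p = 0.0883). Between mock groups 1 of 10 was called lower and 1 of 10 higher, beside 4.34% of all genes called. The lower one, homer, stood at 26.8 ± 1.39 against 29.8 ± 1.4 RPKM (log2 change -0.14, limma adjusted p = 0.0384). Shank, also named Prosap, was higher at 12.4 ± 0.601 against 10.8 ± 0.917 RPKM (log2 change 0.19, limma adjusted p = 0.0334). Both mock calls were fragile. That of homer was lost without 1X mock replicate 2, 4, 5 or 6 or 3X mock replicate 4, 5 or 6 (adjusted p up to 0.101). That of Shank was lost without 1X mock replicate 1, 2 or 3 or 3X mock replicate 1, 2, 4, 5 or 6 (up to 0.0885). Both were lost when only the mock groups were fitted (limma adjusted p = 0.0682 for homer and 0.0528 for Shank). The call of homer was also lost with a replicate block (limma adjusted p = 0.062). That of Shank was also lost without the filter (limma adjusted p = 0.0512) and after quantile normalization (limma adjusted p = 0.0574). In trained flies Shank was higher after 3 sessions too (log2 change 0.20, limma adjusted p = 0.0144). It was the 1 of 10 called there, beside 11.1% of all genes.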

How the data were processed

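Poly(A) RNA of 24 single male heads (4 groups, 6 flies each) was made into non-stranded SMART-Seq v4 libraries. Values deposited by the authors were in RPKM, for 17559 genes and 1 column per fly, and no column was left unmapped (0). According to the submitters' processing notes and methods, bcl2fastq 2.18, TopHat2 2.0.13 with dm6 and edgeR 3.18.1 were used, while another methods section names an older TopHat, dm3 and cuffdiff. Whole reads were recovered from the RPKM values for all 16992 genes above 0 within a tolerance of 0.02 (annotated length for 16284, fitted length for 708), and all 8 genes used the annotated length. Groups came from sample labels.

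Since the deposited unit was RPKM, limma 3.58.1 (R 4.3.3) was fitted to log2(RPKM + 1) with 1 mean per group for 24 flies and eBayes with trend, over the 10547 genes that reached 1 RPKM in 6 or more flies, a filter that all 8 genes passed. Tests were two-sided with Benjamini-Hochberg adjustment over all genes tested, called below 0.05. p-values compare single flies, 1 head each. Ratios were compared by exact permutation over 924 splits, and pairs by 100000 permutations of flies within groups (Python 3.11.15, scipy 1.17.1). Intervals are 95%, and reads carried no molecular identifiers, so counts of reads cover counting error only. The fit was also run on simulated data, with a log2 change of 1 given to 200 of 10547 genes in the 1X comparison. It recovered 96.5% of these 200 genes, with 2.53% false calls. Smaller changes were not tried. Recovery at the size fitted for the 8 genes after 1X training (log2 change -0.0923 to 0.0887) is therefore not known.

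The 8 genes, the lists and the tests were chosen with earlier results of these data known. The text names every one of the 8 genes, every gene of the 3 glutamate lists called in a training or mock comparison, and the smallest p of each list per training comparison. Genes called between the trained groups, and mtt, were named after their values were seen. Alternatives were another pseudocount (0.1), no filter or 3 RPKM, quantile or median-ratio scaling, sample weights, voom on recovered reads with TMM factors, fits of the compared groups alone, a replicate block and leaving out each fly.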

Additional observations from a re-analysis of the deposited data

Results flagged for a closer look

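In a group of 6 flies a single value was marked where its gap to the nearest fly exceeded 0.625 of the range of the group. Of 44 sets examined (the 8 genes and 3 ratios in 4 groups) 3 were marked, and chance alone would mark about 2.2, near 1 in 20.

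GluRIB in 1X trained replicate 3 was the highest of its group at 2.79 RPKM against 2.41 RPKM in the next fly, a gap of 0.741 of the range. Gs2 in 3X trained replicate 4 was the lowest of its group at 870.6 RPKM against 1022.1 RPKM, a gap of 0.725 of the range. The log2 ratio of Eaat1 over Gs2 in 3X trained replicate 3 was the lowest of its group at -2.95 against -2.68, a gap of 0.841 of the range. Their part in the comparisons is covered by the values with each fly left out.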

How the results depend on the processing

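None of the 8 genes was called (0) in any of the 5 comparisons under any alternative or with any fly left out, and none (0) of the 9 ratio tests passed. Signs of near-zero changes turned. With quantile normalization the log2 change became -0.00173 for GluRIB after 1X, -0.0125 for Eaat1 after 3X, and -0.0081 for Nmdar1 and -0.0205 for GluRIB between mock groups. With sample weights it became 0.00704 for GluClalpha after 1X and -0.00627 for Eaat1 between trained groups. With voom it became -0.000276 for GluRIB between mock groups and -0.00952 for Eaat1 between trained groups. Quantile normalization also raised the change of Gs2 from 0.09 to 0.195 after 1X and from 0.11 to 0.20 between mock groups, with adjusted p of 0.0857 and 0.0859. The causes were not tested.

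With single flies left out, signs turned within these ranges: after 1X GluRIB (-0.0116 to 0.063) and GluClalpha (-0.0206 to 0.023); after 3X Eaat1 (-0.00488 to 0.0654). For the 3X effect minus the 1X effect they were Nmdar1 (-0.0672 to 0.0177), Eaat1 (-0.0461 to 0.0322) and Gs2 (-0.06 to 0.0324). Between mock groups they were Nmdar1 (-0.0331 to 0.0519), Nmdar2 (-0.0632 to 0.000674), GluRIB (-0.0313 to 0.0451), mGluR (-0.0214 to 0.0642) and Eaat1 (-0.0139 to 0.047). Between trained groups they were Nmdar1 (-0.0407 to 0.0089), GluRIA (-0.0609 to 0.0164) and Eaat1 (-0.0274 to 0.0508). The 3X differences in log2 ratio ran from -0.0357 to 0.028 for Nmdar1 over Nmdar2 and from -0.0769 to 0.00107 for Eaat1 over Gs2.

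The number of gene pairs that varied together was 6, ran from 1 to 7 with single flies left out, and was 3 with a replicate block. Replicate numbers did not pair the flies, since same-numbered flies of different groups correlated between -0.237 and 0.147 and not every fly correlated best with its own number. With that block no gene of the 8 was called, and among the other genes named the calls of clumsy, homer and wrapper (1X and between trained groups) and Got2 (between trained groups) were lost.

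Calls over all genes changed more. They were 345, 109 and 9 without the filter for 1X, 3X and their difference, against 521, 239 and 18, and 894, 382 and 120 with sample weights, which also gave 728 against 458 between mock groups. Fitting only the groups compared gave 54 after 3X and 568 against 1172 between trained groups, and the block gave 8 for the difference. Leaving out single flies gave as few as 302 after 1X, 26 to 612 after 3X and 3 to 107 for the difference, so percentages of called genes beside the 8 are approximate. The 3 RPKM filter removed GluRIB and clumsy, which then had no value.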

Other observations

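Genes whose level followed each of the 8 most closely over the 24 flies, with group means removed, were taken as the pair with the highest Pearson r among 10547 genes. They describe these libraries only. For Gs2 these were Hexo2 (r = 0.898) and Cyp4g15 (r = 0.895), and for Eaat1 they were ND-15 (r = 0.898), a respiratory chain subunit, and the antisense RNA asRNA:CR44969 (r = 0.875). For mGluR they were gw (r = 0.852), a component of microRNA silencing, and FucTA (r = 0.85), a fucosyltransferase, which also led for Nmdar1 (r = 0.834) ahead of pHCl-1 (r = 0.832), a pH-sensitive chloride channel. GluRIB was closest to brp (r = 0.838), the active zone scaffold Bruchpilot, and to timeout (r = 0.802). For GluRIA they were CG14408 (r = 0.799) and meng (r = 0.75), for Nmdar2 tty (r = 0.777), an anion channel, and tutl (r = 0.753), and for GluClalpha CG7220 (r = 0.766) and CG33639 (r = 0.762).

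Of the other cell types a head can hold, no marker of photoreceptors (6 genes), muscle (5 tested), fat body (6), testis (3 tested) or hemocytes (5) was called by limma after 1X or 3X training, beside 4.94% and 2.27% of all genes. Markers of some types leaned one way below that threshold. After 1X training all 6 fat body genes were lower on average (median log2 change -0.35, 3 of 6 at an unadjusted p below 0.05) and all 5 muscle genes were lower (median -0.15, 2 of 5), beside 20.8% of all genes at that limit. Between mock groups the photoreceptor genes trp (log2 change 0.41, limma adjusted p = 0.000112) and chp (0.39, limma adjusted p = 0.000515) were higher and inaD (-0.32, limma adjusted p = 0.00883) was lower in 3X flies. The same photoreceptor genes were called between trained groups, with apolpp, a fat body lipoprotein, higher by 0.30 (limma adjusted p = 0.0183) and wrapper higher by 0.31 (limma adjusted p = 0.0343) after 3 sessions. The call of wrapper was lost in 4 of 9 alternatives (adjusted p up to 0.134) and without 1X trained replicate 1 or 3 or 3X trained replicate 1, 5 or 6.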
